A study of Mus musculus with 9 samples.

Results

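The colony-stimulating factor (CSF) system of lung macrophages was examined through 9 genes, chosen by symbol from the 24346 gene symbols of the expression files: the growth factor Csf1, the receptors Csf1r, Csf2ra, Csf2rb, Csf2rb2 and Csf3r, and the signalling genes Jak2, Stat5a and Stat5b. Each of the 9 was listed in every sample. The samples were RNA from CD45+ autofluorescent macrophages sorted from the lungs of C57BL/6 mice, a wild-type strain, aged 10 weeks after birth, in 3 groups of 3 samples. Ctrl-AM were Siglec-F+ alveolar macrophages (AMs) of mice given the vehicle, PBS. Tumor-AM were AMs, gated in the same way, of mice with Lewis lung carcinoma cells growing in the left lung, a C57BL/6 cancer line that carried the red fluorescent protein tdTomato. Tumor-macrophage were the Siglec-F−, F4/80+, CD11b+ tumor-associated macrophages of tumor-bearing mice. No gene was deleted in these groups, and no Ctrl counterpart of the Tumor-macrophage gate was analysed here, so cell type and tumor cannot be told apart in comparisons of Tumor-macrophage with Ctrl-AM. Levels were FPKM, in which fragments are counted per transcript length and per mapped fragment.

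CSFs are secreted proteins that keep myeloid cells alive and direct their maturation. CSF1 (M-CSF) and interleukin 34 bind CSF1R, a receptor with its own tyrosine kinase, on which most tissue macrophages and monocyte-derived cells depend. GM-CSF, the product of Csf2, binds CSF2RA, which joins the shared β chain CSF2RB to recruit the kinase JAK2 and the transcription factors STAT5A and STAT5B, and AMs need this route to mature through the transcription factor PPARγ. CSF3R is the G-CSF receptor, best known on neutrophils. The mouse has an extra β chain, Csf2rb2, which serves interleukin 3.

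Marker levels went with the labels of the sorted cells, which is a description and not a test. Siglec-F was part of the gates. The AM and tumor-associated macrophage markers below are those the study itself showed for the same populations. The summed FPKM of 5 AM markers (Siglecf, Pparg, Mrc1, Marco and Siglec1) was 767 to 834 in Ctrl-AM, 551 to 834 in Tumor-AM and 96.2 to 119 in Tumor-macrophage, while that of 4 tumor-associated macrophage markers (Ccr2, Cx3cr1, Tgfb3 and Ly6c2) was 6.58 to 8.35, 11.7 to 14.3 and 149 to 194. Markers of other cells were also found. B cell markers summed to 12.7 to 16.8, 3.15 to 7.49 and 31.5 to 58.2 FPKM in the same order of groups, T and NK cell markers to 2.37 to 4.51, 3.02 to 7.72 and 7.56 to 17.5, dendritic cell markers to 15.2 to 17.9, 7.48 to 14.6 and 25.0 to 56.4, and epithelial markers to 71.3 to 219.6, 54.2 to 92.1 and 19.2 to 73.5. Their part in the results was not tested. In bulk RNA of this kind, fewer cells that express a gene and less RNA of it per cell cannot be told apart.

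The β chains are near-identical neighbours, which bears on how well their levels can be separated. In the GENCODE vM21 annotation of GRCm38, Csf2rb lies at chr15:78325752-78353847 on the plus strand with 15 exons in the transcript used, and Csf2rb2 at chr15:78282507-78305721 on the minus strand with 14 exons, 20030 bases apart. Their coding sequences were identical at 95.2% of aligned bases, with a longest identical run of 242 bases, longer than a 75-base read. Of the windows of 75 bases in each transcript, 10.7% of those of Csf2rb and 11.1% of those of Csf2rb2 also occurred in the other gene. The stretch of 75 bases in which the coding sequences differed most, with 14 differences, is shown in the sense direction with the differing bases in capitals. It lies in exon 5 of Csf2rb (chr15:78338905-78338979) and exon 4 of Csf2rb2 (chr15:78294352-78294426), and a read here belongs to 1 gene only.
Csf2rb: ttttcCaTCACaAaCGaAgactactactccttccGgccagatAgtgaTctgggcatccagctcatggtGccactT
Csf2rb2: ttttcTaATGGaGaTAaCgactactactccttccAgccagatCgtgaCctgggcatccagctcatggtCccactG

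The STAT5 genes form a similar pair. Stat5b (chr11:100780731-100850724, minus strand) and Stat5a (chr11:100859351-100885169, plus strand) lie 8626 bases apart, with 90.7% identity over the aligned coding bases and a longest identical run of 324 bases. Shared windows made up 10.1% of Stat5a and 7.53% of Stat5b. For Csf1r, 17.3% of windows also lay in transcripts of the overlapping gene Hmgxb3, whose FPKM was 2.66 to 6.03 over all samples, against 93.7 or more for Csf1r. Csf3r shared 3.4% of its windows with other genes, and Csf1, Csf2ra and Jak2 shared none. How the authors' software divided reads between such genes is not given in the sources used here, so the levels of each pair are uncertain to the extent of the shared windows.

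Csf1, the only ligand of the family that passed the filter on low values (an FPKM of 1 or more in 3 or more samples), was low in all groups. It was at 0.925, 0.347 and 0.162 FPKM in Ctrl-AM replicates 1 to 3, at 0.392, 0.931 and 0.612 in Tumor-AM and at 1.25, 1.71 and 2.31 in Tumor-macrophage. The AM groups overlapped and every Tumor-macrophage sample lay above them, but the gene passed the filter only through these 3 samples, so the comparisons with them select for a difference and no test of them is given. An estimated 9 to 46 reads per AM library and 55 to 114 per Tumor-macrophage library stood behind these values. As a description, the difference to Tumor-AM was 0.74 ± 0.22 (SE) and that to Ctrl-AM 0.91 ± 0.22 on the log2(FPKM + 1) scale. Fibroblasts and endothelial cells also make CSF1. Their markers summed to 3.24 to 6.36 and 4.66 to 5.78 FPKM in Ctrl-AM, 7.84 to 50.1 and 1.91 to 4.98 in Tumor-AM, and 6.11 to 9.55 and 5.07 to 7.96 in Tumor-macrophage, and their part in the Csf1 level was not tested.

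The other ligands were barely present in the sorted cells. Il34 reached at most 0.234 FPKM in any sample, Csf3 (G-CSF) 0.621 and Il5 0.675. Csf2 was listed at 0 in all Tumor-macrophage samples, in Tumor-AM replicates 1 and 3 and in Ctrl-AM replicate 1, and reached 0.951 in Ctrl-AM replicate 2. Il3 was listed at 0 in all 9 samples.

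Csf1r had the largest change of the 5 receptors between Tumor-macrophage and either AM group. It was at 93.7, 113 and 105 FPKM in Ctrl-AM replicates 1 to 3, at 153, 101 and 143 in Tumor-AM, and at 599, 458 and 539 in Tumor-macrophage. All AM samples lay below 160 and overlapped between control and tumor, and all Tumor-macrophage samples lay far above them. The mean of 531.95 ± 71.0 FPKM (SD, n = 3) in Tumor-macrophage was 4.02 times that of Tumor-AM and 5.12 times that of Ctrl-AM. The log2 changes were 2.01 ± 0.15 (SE, limma adjusted p = 1.53e-06) and 2.34 ± 0.15 (limma adjusted p = 3.67e-07). Between the AM groups the change of 0.33 ± 0.15 did not pass the threshold (limma adjusted p = 0.224). This call rested on Tumor-AM replicate 2, the lowest of its group, and without that sample the change was 0.51 with a limma adjusted p = 0.0308.

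Csf2ra, the GM-CSF-specific chain, was the most abundant of the 5 receptor transcripts per length in every AM sample. It was at 195, 215 and 193 FPKM in Ctrl-AM, at 258, 252 and 275 in Tumor-AM, and at 187, 170 and 176 in Tumor-macrophage. None of the groups overlapped: Tumor-AM was highest, Ctrl-AM in the middle and Tumor-macrophage lowest. Tumor-AM exceeded Ctrl-AM 1.30-fold (log2 change 0.38 ± 0.071 SE, limma adjusted p = 0.00838). This is the only change between the AM groups past the threshold among the 9 genes, and rescaling every sample to the same total (TPM) took it to 0.24 with a limma adjusted p = 0.0546. Tumor-macrophage was below Tumor-AM by 0.55 on the log2 scale, a change of −0.55 ± 0.071 (limma adjusted p = 7.95e-05). The difference of −0.18 ± 0.071 from Ctrl-AM missed the threshold (limma adjusted p = 0.0553), but passed it under quantile normalization (−0.20, limma adjusted p = 0.0459), under TPM (−0.41, limma adjusted p = 0.000503) and without Tumor-macrophage replicate 1 (−0.21, limma adjusted p = 0.0398).

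Csf2rb, the signalling chain shared by the receptors for GM-CSF, interleukin 3 and interleukin 5, was lowest in Tumor-macrophage. It was at 111, 118 and 121 FPKM in Ctrl-AM, at 134, 132 and 145 in Tumor-AM, and at 68.8, 55.7 and 58.5 in Tumor-macrophage. The groups did not overlap, with the order of Csf2ra and a wider gap. Ctrl-AM exceeded Tumor-macrophage 1.91-fold and Tumor-AM exceeded it 2.25-fold, with log2 changes of −0.93 ± 0.086 (SE, limma adjusted p = 5.8e-06) and −1.16 ± 0.086 (limma adjusted p = 1.21e-06). Between the AM groups the change was 0.23 ± 0.086 (limma adjusted p = 0.121).

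Csf2rb2 was less abundant per length than Csf2rb in every sample. It was at 17.2, 15.9 and 18.8 FPKM in Ctrl-AM, at 21.3, 18.8 and 23.4 in Tumor-AM, and at 16.1, 15.0 and 16.6 in Tumor-macrophage. Ctrl-AM overlapped with both other groups, which did not overlap with each other. The gene fell by 0.39 on the log2 scale from Tumor-AM to Tumor-macrophage (SE 0.10, limma adjusted p = 0.00916). It differed by 0.27 ± 0.10 between Tumor-AM and Ctrl-AM (limma adjusted p = 0.122) and by −0.11 ± 0.10 between Tumor-macrophage and Ctrl-AM (limma adjusted p = 0.373), the latter passing under TPM only (−0.34, limma adjusted p = 0.0206).

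Csf3r, like Csf1r, was highest in Tumor-macrophage. It was at 11.9, 10.5 and 14.0 FPKM in Ctrl-AM, at 16.1, 7.39 and 8.72 in Tumor-AM, and at 42.1, 29.8 and 39.1 in Tumor-macrophage. Tumor-AM spread to both sides of Ctrl-AM, and Tumor-macrophage lay above every AM sample. Tumor-macrophage was 3.44-fold above Tumor-AM (log2 change 1.75 ± 0.24 SE, limma adjusted p = 0.000128), and 3.05-fold above Ctrl-AM, a change of 1.53 ± 0.24 (limma adjusted p = 0.000292). The AM groups differed by −0.22 ± 0.24 (limma adjusted p = 0.629). Csf3r is a neutrophil gene, and 10 of 11 neutrophil markers were listed. They summed to 135 to 161 FPKM in Ctrl-AM, to 135 to 206 in Tumor-AM and to 66.1 to 103 in Tumor-macrophage. Most of the sum came from S100a8 and Mmp8, with means of 77.7, 121 and 64.3 FPKM and of 39.5, 40.0 and 5.46 in the same order of groups. Cxcr2 had means of 4.19, 5.10 and 2.42, S100a9 25.4, 6.97 and 15.0, and Retnlg 2.59, 0.697 and 0.870. All 5 of these, the markers that passed the filter, had a lower mean in Tumor-macrophage than in Ctrl-AM. Against Tumor-AM the markers did not move together, since S100a9 and Retnlg had higher means in Tumor-macrophage and the others lower. Elane was at 0 in all samples. Their part in the Csf3r level was not tested.

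In the remaining receptor genes of the family, Il3ra, the interleukin 3 chain that pairs with the β chains, was at 0.892, 1.02 and 1.08 FPKM in Ctrl-AM, at 2.11, 1.48 and 2.58 in Tumor-AM and at 8.10, 4.50 and 5.81 in Tumor-macrophage, with no overlap. It rose by 1.21 ± 0.19 (SE, log2) from Tumor-AM to Tumor-macrophage (limma adjusted p = 0.000417), and differed by 0.60 ± 0.19 between the AM groups (limma adjusted p = 0.0825, and 0.0475 without Tumor-macrophage replicate 1). Il5ra, the interleukin 5 chain of eosinophils and B1 cells, reached at most 0.295 FPKM and was not tested. Eosinophil markers summed to at most 1.35 FPKM with Epx at 0 in all samples, and mast cell and basophil markers to at most 12.6.

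**Figure D1:**
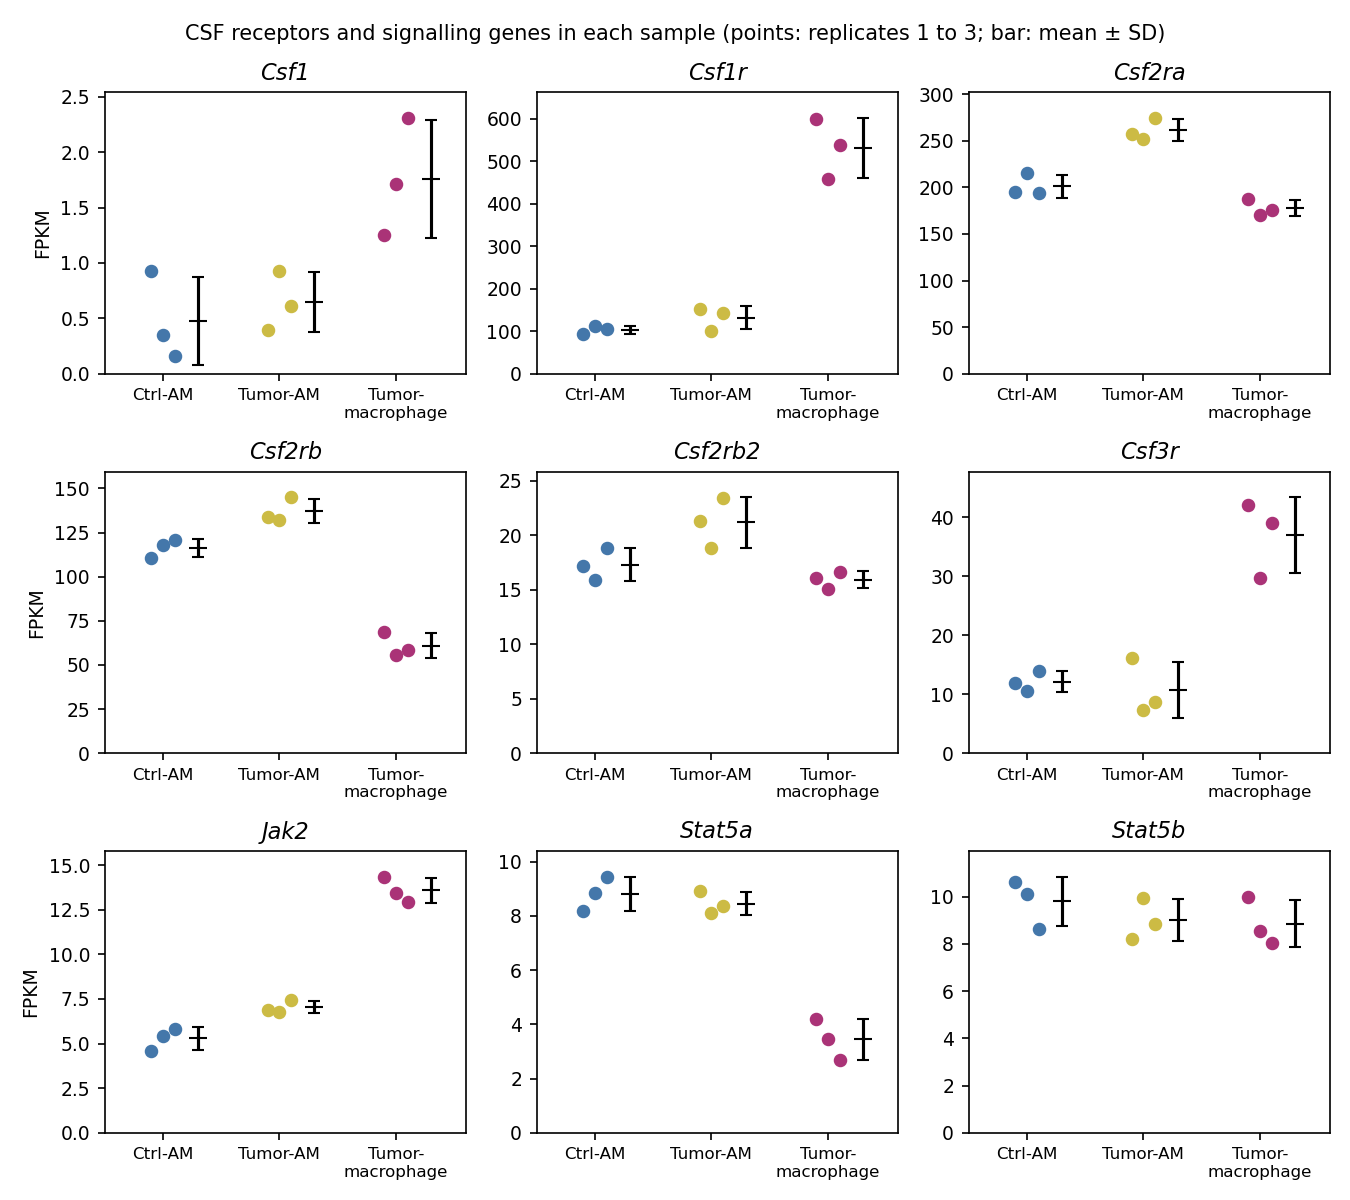
FPKM (vertical axes, linear from 0, a scale for each gene) of the 9 genes in the 3 groups, with a point for each replicate and a bar for the mean ± SD (n = 3). Csf1, Csf1r, Csf3r and Jak2 are highest in Tumor-macrophage, Csf2ra, Csf2rb and Csf2rb2 are highest in Tumor-AM by mean, Stat5a is lowest in Tumor-macrophage, and Stat5b overlaps in all groups.

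Jak2, the kinase bound to the β chain and also to other cytokine receptors, rose from Tumor-AM to Tumor-macrophage, a comparison in which both β chains fell. It was at 4.60, 5.43 and 5.83 FPKM in Ctrl-AM, at 6.90, 6.80 and 7.43 in Tumor-AM, and at 14.4, 13.5 and 12.9 in Tumor-macrophage. The groups stood in 3 separate steps without overlap. Tumor-macrophage was 1.93-fold above Tumor-AM (log2 change 0.86 ± 0.11 SE, limma adjusted p = 5.67e-05) and 2.57-fold above Ctrl-AM (1.22 ± 0.11, limma adjusted p = 3.07e-06). The step between the AM groups, 0.36 ± 0.11, had a limma adjusted p = 0.056 and passed only when genes under an FPKM of 5 were left out (limma adjusted p = 0.0466).

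The STAT5 genes parted. Stat5a was at 8.17, 8.86 and 9.43 FPKM in Ctrl-AM, at 8.90, 8.09 and 8.36 in Tumor-AM, and at 4.20, 3.44 and 2.68 in Tumor-macrophage. Stat5b was at 10.6, 10.1 and 8.62 FPKM in Ctrl-AM, at 8.21, 9.96 and 8.83 in Tumor-AM, and at 9.98, 8.54 and 8.06 in Tumor-macrophage. For Stat5a the AM groups overlapped and Tumor-macrophage lay below all of them, while for Stat5b all 3 groups overlapped. Stat5a fell by 1.10 on the log2 scale from Tumor-AM to Tumor-macrophage (SE 0.13, limma adjusted p = 4.99e-05) and differed by −1.16 ± 0.13 from Ctrl-AM (limma adjusted p = 2.89e-05). Stat5b differed by −0.02 ± 0.12 and −0.13 ± 0.12 in the same comparisons (limma adjusted p = 0.894 and 0.375), the latter passing under TPM only (−0.35, limma adjusted p = 0.0233). Between the AM groups the changes of Stat5a and Stat5b were −0.05 ± 0.13 and −0.11 ± 0.12 (limma adjusted p = 0.852 and 0.636).

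The calls were counted over the 8 genes other than Csf1, which passed the filter only through the group where it was highest. From Ctrl-AM to Tumor-AM, 1 of 8 genes passed the threshold (12.5%), upward, against 10.3% of the 10686 genes tested (7.11% higher and 3.18% lower), so the share was near the background. From Tumor-AM to Tumor-macrophage 7 of 8 passed (87.5%), 3 higher and 4 lower, against 48.6% of all genes (24.2% higher and 24.4% lower). From Ctrl-AM to Tumor-macrophage 5 of 8 passed (62.5%), 3 higher and 2 lower, against 54.8% (27.7% and 27.1%). The comparisons share samples and are not independent of each other. The direction of calls over all genes moved with the scaling: from Ctrl-AM to Tumor-AM 760 genes were higher and 340 lower as deposited, 607 and 446 under quantile normalization and 477 and 830 under TPM, and from Ctrl-AM to Tumor-macrophage 2960 and 2900 became 2193 and 4529 under TPM. The median of all genes then stood at −0.11 and −0.22, and a change under TPM is relative to it. Each p-value measures the spread between samples, which a figure legend of the study gives as 3 mice per population.

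**Figure D2:**
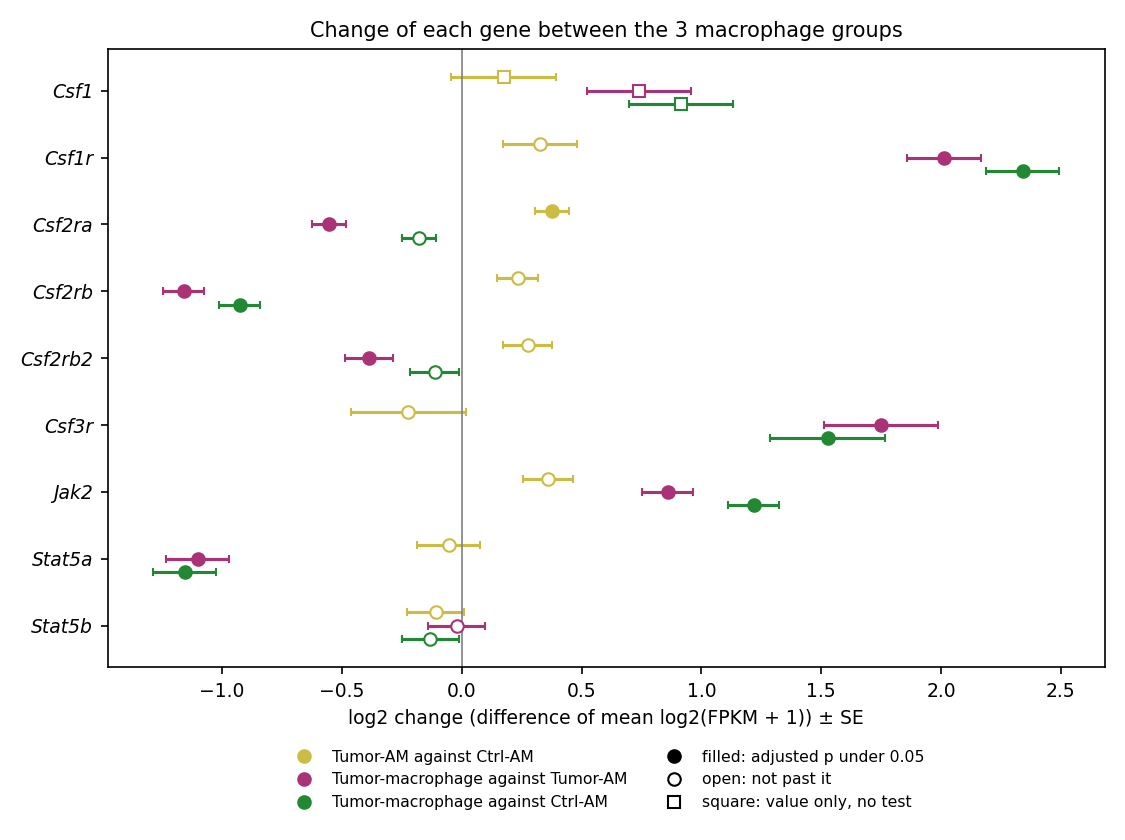
Log2 change of each gene (horizontal axis, difference of mean log2(FPKM + 1), with bars for the SE of the limma fit) in the 3 comparisons, filled where the adjusted p was under 0.05, and with open squares for Csf1, which is shown as values with no test. Among the AM comparisons only Csf2ra is filled, and in both Tumor-macrophage comparisons Csf1r has the largest increase of the 9 genes, 2.01 and 2.34.

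Ratios within a sample do not depend on how samples were scaled. Csf1r was at 0.481, 0.523 and 0.544 times Csf2ra by FPKM in Ctrl-AM, at 0.595, 0.399 and 0.520 in Tumor-AM, and at 3.20, 2.69 and 3.06 in Tumor-macrophage. AMs of both groups held more Csf2ra than Csf1r per length, and tumor-associated macrophages the reverse, in every sample. The mean log2 ratio differed by −0.05 between the AM groups (exact permutation test, two-sided, p = 0.8) and by 2.58 and 2.53 between Tumor-macrophage and Tumor-AM or Ctrl-AM (p = 0.1 for each in the same exact test). With 3 samples against 3 the smallest p this test allows is 0.1, so it could not pass 0.05. The sign of the small AM difference depended on Tumor-AM replicate 2, without which it was 0.11.

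Other ratios are given as description. Csf1r stood at 0.761 to 1.15 times Csf2rb in the AM samples and at 8.22 to 9.20 times in Tumor-macrophage. The ratio of Csf2rb to Csf2rb2 was 6.19 to 7.44 in AMs and 3.53 to 4.28 in Tumor-macrophage, without overlap, so the chain shared with GM-CSF had the larger difference. That of Csf2ra to Csf2rb was 1.61 to 1.93 in AMs and 2.73 to 3.06 in Tumor-macrophage. Stat5a stood at 0.768 to 1.09 times Stat5b in AMs and at 0.333 to 0.421 times in Tumor-macrophage.

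**Figure D3:**
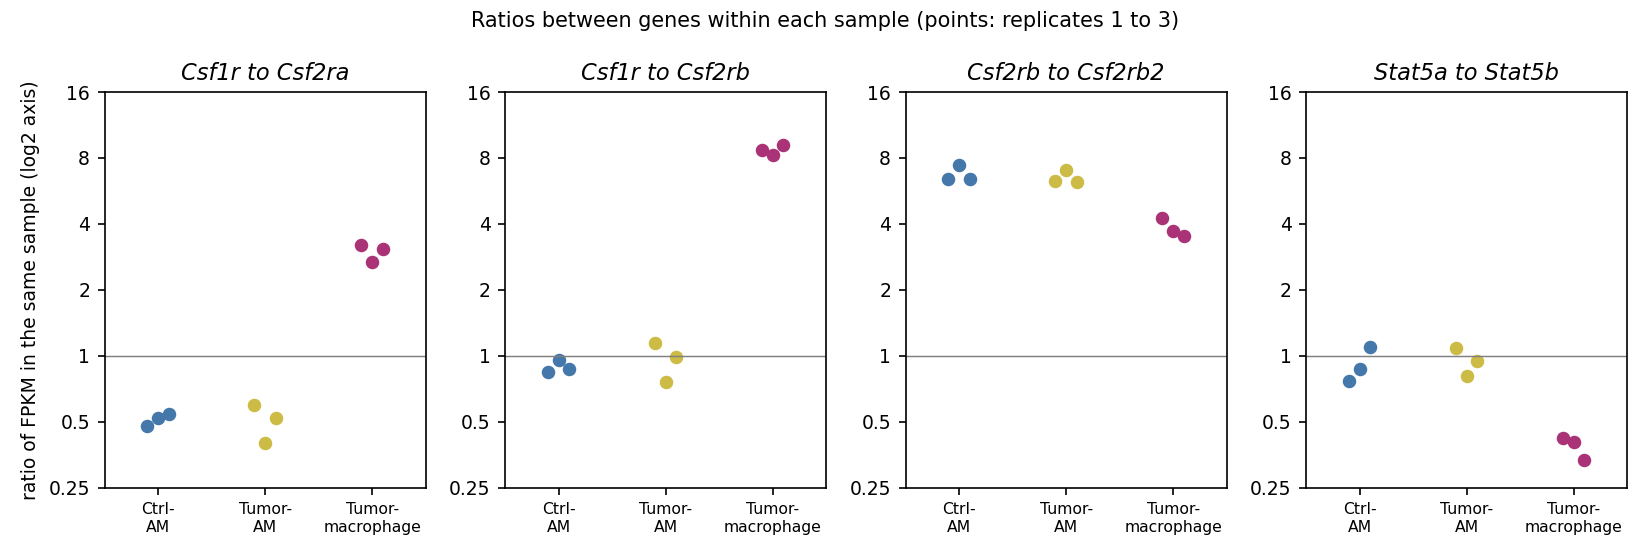
Ratio of the FPKM of a pair of genes within each sample (vertical axis, log2 scale, the same in all panels), with a point for each replicate. Csf1r to Csf2ra lies between 0.399 and 0.595 in AMs and between 2.69 and 3.20 in Tumor-macrophage, and the ratios of Csf2rb to Csf2rb2 and of Stat5a to Stat5b are lower in Tumor-macrophage than in any AM sample.

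Of 9 genes of the JAK and STAT family, Jak2, Stat5a and Stat5b included and Stat4 left out for the reason given for Csf1, 3 rose and 1 fell from Tumor-AM to Tumor-macrophage, 44.4% against 48.6% of all genes tested, so the share was near the background. The median change was −0.02 against 0.0012 over all genes, and under TPM 3 rose and 3 fell. From Ctrl-AM to Tumor-macrophage 4 rose and 2 fell (66.7% against 54.8%) with a median of 0.22 against −0.0082, and under TPM 3 rose and 4 fell with a median of −0.01. Between the AM groups none passed with limma, where 5 had an unadjusted p under 0.05, and the median was 0.27 against 0.014. Jak3, a kinase of lymphoid cytokine signalling, rose by 0.88 ± 0.11 (SE) from Tumor-AM to Tumor-macrophage (limma adjusted p = 8.25e-05). Stat4, of the same kind of signalling, was at 0.0995, 0.436 and 0.523 FPKM in Ctrl-AM, at 0.497, 0.487 and 0.476 in Tumor-AM and at 3.29, 5.13 and 4.54 in Tumor-macrophage, which are given with no test. The summed T and NK cell markers were also higher in Tumor-macrophage, and their part was not tested. Stat2, a gene of type I interferon signalling, rose there by 0.73 ± 0.21 (limma adjusted p = 0.0166), a call lost with no filter on low values (limma adjusted p = 0.0969). It was also lost without Tumor-AM replicate 1 (0.63, limma adjusted p = 0.0591) or Tumor-macrophage replicate 1 (0.59, limma adjusted p = 0.0642). Between Ctrl-AM and Tumor-macrophage, Jak1 rose by 0.38 ± 0.095 (limma adjusted p = 0.00617), not under TPM (0.15, limma adjusted p = 0.173), and Tyk2 had −0.40 ± 0.15 (limma adjusted p = 0.0487), a call kept without Ctrl-AM replicate 3 or Tumor-macrophage replicate 1 and lost without any other sample (limma adjusted p up to 0.175).

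Adaptors and kinases that carry the signal from the receptors went both ways. Of 17 genes, none passed between the AM groups with limma, where 3 had an unadjusted p under 0.05. From Tumor-AM to Tumor-macrophage 5 rose and 6 fell (64.7%, against 48.6% of all genes), with a median of −0.014 against 0.0012 for all genes. Against Ctrl-AM 6 rose and 5 fell (64.7%, against 54.8%), with a median of −0.0083 against −0.0082. Pik3r1 and Pik3cd, the regulatory and catalytic subunits of PI3 kinase, rose by 0.92 ± 0.14 and 0.48 ± 0.12 from Tumor-AM to Tumor-macrophage (SE, limma adjusted p = 0.000288 and 0.00681). Grb2, an adaptor of the Ras pathway, rose by 0.43 ± 0.061 (limma adjusted p = 0.000153). The adaptor Shc1, the MAP kinase gene Mapk3 and the Src family kinase Fgr were lower, with changes of −0.91 ± 0.078, −1.42 ± 0.097 and −1.16 ± 0.078 (limma adjusted p = 3.74e-06, 6.26e-07 and 5.72e-07).

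More genes that restrain cytokine signalling rose than fell in Tumor-macrophage. Of 11 negative regulators, with Socs1 left out as above, 1 rose from Ctrl-AM to Tumor-AM (9.09%, near the 10.3% of all genes, with a median of 0.098 against 0.014), 7 rose and 3 fell from Tumor-AM to Tumor-macrophage (90.9% against 48.6%, with a median of 0.53 against 0.0012), or 6 and 4 under TPM, and 7 rose and 2 fell from Ctrl-AM (81.8% against 54.8%, with a median of 0.43 against −0.0082), or 5 and 3 under TPM. Socs3, an inhibitor of JAKs at gp130 and G-CSF receptors, was at 4.37, 5.30 and 4.68 FPKM in Ctrl-AM, at 9.58, 13.4 and 12.0 in Tumor-AM and at 95.7, 87.2 and 79.97 in Tumor-macrophage. It stepped up without overlap, by 1.12 ± 0.13 between the AM groups (SE, limma adjusted p = 0.000599) and by 2.82 ± 0.13 from Tumor-AM to Tumor-macrophage (limma adjusted p = 2.76e-08). Socs1, which restrains interferon signalling, was at 0.494 to 0.706 FPKM in Ctrl-AM, at 0.939 to 2.05 in Tumor-AM and at 10.2 to 15.3 in Tumor-macrophage. It passed the filter only with the help of the Tumor-macrophage samples, and its levels are given with no test. Socs2, which STAT5 induces, went the other way: it was at 28.0, 23.2 and 24.7 FPKM in Ctrl-AM, at 26.0, 20.6 and 22.5 in Tumor-AM and at 2.74, 2.81 and 3.30 in Tumor-macrophage. Its change of −2.60 ± 0.11 from Tumor-AM to Tumor-macrophage had a limma adjusted p = 2.67e-08. Inpp5d (SHIP1), a phosphatase that opposes PI3 kinase, and the docking proteins Dok1 and Dok2 rose by 1.01 ± 0.091, 1.08 ± 0.13 and 0.71 ± 0.20 (limma adjusted p = 5.46e-06, 4.84e-05 and 0.0131). The last call was lost with no filter on low values (limma adjusted p = 0.0954) and without Tumor-AM replicate 2 (0.56, limma adjusted p = 0.0509).

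Known STAT5 target genes, 10 in all and 2 of them (Cish and Socs2) also negative regulators, did not move as a group. From Ctrl-AM to Tumor-AM 2 rose and 1 fell (30% against 10.3% of all genes, with a median of 0.24 against 0.014). From Tumor-AM to Tumor-macrophage 3 rose and 5 fell (80% against 48.6%, with a median of −0.44 against 0.0012). From Ctrl-AM to Tumor-macrophage 4 rose and 3 fell (70% against 54.8%, with a median of 0.0064 against −0.0082), a median that turned to −0.23 under TPM. Osm, the cytokine oncostatin M, was the gene of the list that rose most in tumor-bearing AMs, from 125, 162 and 165 FPKM in Ctrl-AM to 526, 372 and 607 in Tumor-AM, and was at 140.02, 99.7 and 137 in Tumor-macrophage. The AM groups did not overlap, with a change of 1.71 ± 0.19 (SE, limma adjusted p = 0.000584), and Tumor-macrophage lay by −1.98 ± 0.19 from Tumor-AM (limma adjusted p = 8.99e-06), at levels that overlapped with Ctrl-AM. Ccnd2, a D-type cyclin, was at 89.3, 77.0 and 79.6 FPKM in Ctrl-AM, at 40.9, 47.8 and 39.2 in Tumor-AM and at 4.86, 7.45 and 5.15 in Tumor-macrophage. It stepped down without overlap, by −0.93 ± 0.14 and −2.69 ± 0.14 (limma adjusted p = 0.00287 and 8.12e-08).

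Among the other targets, Ccnd3 fell by 1.24 from Tumor-AM to Tumor-macrophage (SE 0.11, limma adjusted p = 3.89e-06), while the repressor Bcl6 and the survival gene Bcl2l1 rose by 1.15 ± 0.16 and 1.11 ± 0.14 (limma adjusted p = 0.000134 and 7.5e-05). Mcl1, a survival gene singled out after its values were seen, rose by 0.25 ± 0.063 between the AM groups (limma adjusted p = 0.0346). The call was lost under TPM (0.11, limma adjusted p = 0.302), with a constant prior (limma adjusted p = 0.0899) and without any 1 of the 6 AM samples (limma adjusted p = 0.0674 to 0.146). Cish, the classic STAT5-induced inhibitor, was likewise chosen after its values were seen. It was at 18.3, 21.2 and 18.9 FPKM in Ctrl-AM, at 42.0, 24.0 and 29.6 in Tumor-AM and at 22.7, 13.2 and 19.4 in Tumor-macrophage. Tumor-AM lay above both other groups, which overlapped. The AM difference was 0.65 ± 0.21 (SE, limma adjusted p = 0.0853), past the threshold without Tumor-AM replicate 2 (0.83, limma adjusted p = 0.0443) or without Tumor-macrophage replicate 2 (0.65, limma adjusted p = 0.0432), and the change from Tumor-AM to Tumor-macrophage was −0.76 ± 0.21 (limma adjusted p = 0.0133, and 0.0935 with no filter on low values).

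**Figure D4:**
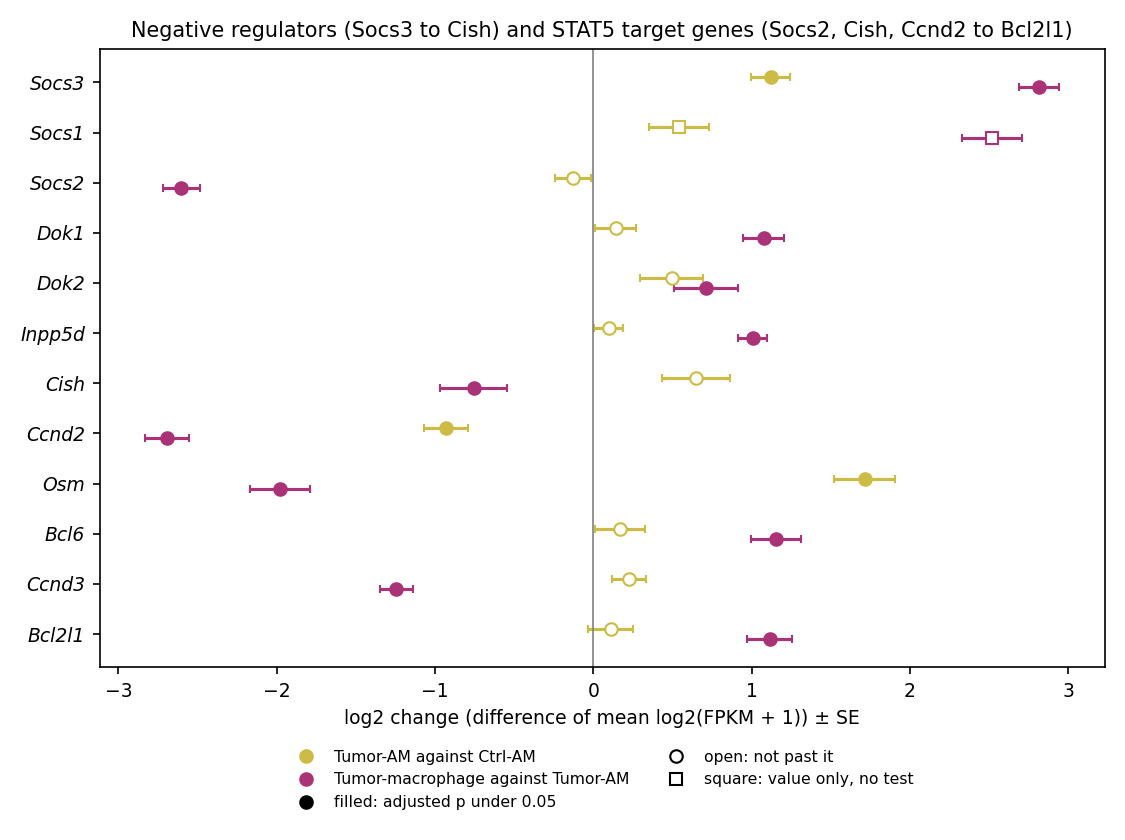
Log2 change (horizontal axis, difference of mean log2(FPKM + 1), with bars for the SE of the limma fit) of named negative regulators, Socs3 to Cish, and STAT5 target genes, Socs2 and Cish with Ccnd2 to Bcl2l1, in Tumor-AM against Ctrl-AM and Tumor-macrophage against Tumor-AM, filled where the adjusted p was under 0.05, and with open squares for Socs1, which is shown as values with no test. Socs3 is to the right of 0 in both comparisons and Ccnd2 to the left in both, and Osm is at 1.71 in the first and −1.98 in the other.

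The letters around the start sites of these genes were read for a pair of motifs, in RefSeq promoters of GRCm38.p6. STAT5 dimers bind the palindrome TTCNNNGAA, which reads the same on both strands and was present in 8.3% of all 32851 promoters of 300 bases, and more than once in 0.457%. Promoters of 7 of the 9 genes were read, all but Csf1r and Csf2rb, and 1, Csf2rb2, held the palindrome. Of the 10 STAT5 targets, promoters of 7 were read, with none for Socs2, Osm and Ccnd2, and 2, Cish and Bcl6, held it. A gene with more than 1 promoter was counted if any of them held the motif, so counts of genes are not on the scale of the shares of promoters. Cish carries a double site at its start, shown because it is the best known of these elements (chr9:107296654-107296683, plus strand, palindromes in capitals).
Cish: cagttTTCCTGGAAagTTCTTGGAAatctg

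Macrophage receptor genes are also known for purine-rich sites of the factor PU.1, the product of Spi1. GAGGAA, searched on both strands, occurred in the 250 bases before the start in 23.3% of promoters, and more than once in 3.54%. Counted by gene, it occurred in 4 of the 7 genes whose promoters were read: Csf2ra, Csf2rb2, Csf3r and Stat5a, the last in only 1 of its promoters. The motifs can overlap, since a palindrome with GAG in its middle holds GAGGAA. Csf2ra had 2 matches, which begin 14 and 8 bases before the RefSeq start, shown with the region before the start (chr19:61228419-61228668, minus strand). Csf3r had 1, beginning 86 bases before the RefSeq start, shown as the site alone (chr4:126024561-126024590, plus strand). In GENCODE vM21 Csf3r starts further upstream, at chr4:126024550, so this site lies inside the annotated gene. Csf2ra starts at chr19:61228429 there, so its matches span that start or lie inside the gene. These receptor genes moved in opposite directions between Tumor-AM and Tumor-macrophage and both held the match, which describes the letters only.
Csf2ra: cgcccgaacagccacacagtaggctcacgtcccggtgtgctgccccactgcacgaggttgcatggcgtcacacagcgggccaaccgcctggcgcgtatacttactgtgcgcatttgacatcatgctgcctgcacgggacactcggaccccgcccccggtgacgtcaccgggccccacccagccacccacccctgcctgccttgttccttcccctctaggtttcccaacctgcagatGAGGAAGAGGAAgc
Csf3r: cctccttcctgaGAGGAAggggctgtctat

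Transcription factors known to act on Csf1r did not rise together with it. Of 6, 3 rose and 1 fell from Ctrl-AM to Tumor-AM (66.7% against 10.3% of all genes, median 0.19 against 0.014 for all genes), or 1 and 1 under TPM. In Tumor-macrophage 2 rose and 4 fell against either AM group. That is 100% against 48.6% of all genes from Tumor-AM (median −0.30 against 0.0012) and against 54.8% from Ctrl-AM (median −0.46 against −0.0082). Under TPM 1 rose and 4 fell from Tumor-AM. The call of Cebpa from Tumor-AM to Tumor-macrophage, −0.24 (limma adjusted p = 0.0349), was lost in 9 of 19 settings. Among these were no filter (limma adjusted p = 0.062) and leaving out Tumor-macrophage replicate 3 (0.107). Spi1, at 302 to 311 FPKM in Ctrl-AM, at 300.3 to 314 in Tumor-AM and at 222 to 254 in Tumor-macrophage, fell by 0.36 on the log2 scale from Tumor-AM to Tumor-macrophage (SE 0.066, limma adjusted p = 0.0011). Runx1 and Cebpb also fell there, by 0.98 (SE 0.10) and 1.06 (SE 0.10), with limma adjusted p = 1.51e-05 and 9.15e-06. Irf8, a factor of monocyte and dendritic cell development, rose by 0.99 ± 0.097 (limma adjusted p = 1.07e-05). The summed dendritic cell markers were also higher in Tumor-macrophage, a part that was not tested. Not every marker of that list was, since Clec9a stayed at means of 1.34, 1.23 and 1.29 FPKM in Ctrl-AM, Tumor-AM and Tumor-macrophage. Ets2 rose by 0.83 ± 0.09 between the AM groups (limma adjusted p = 0.000507) and by 0.29 ± 0.09 from Tumor-AM to Tumor-macrophage (limma adjusted p = 0.0211). The latter call was lost under TPM (0.20, limma adjusted p = 0.151) and with no filter on low values (limma adjusted p = 0.0633). It was also lost without Tumor-AM replicate 2 (0.22, limma adjusted p = 0.0786), Tumor-AM replicate 3 (0.27, limma adjusted p = 0.0663) or Tumor-macrophage replicate 3 (0.28, limma adjusted p = 0.0568). The smaller AM changes of Irf8, Cebpb and Cebpa, 0.45, 0.37 and −0.33, had limma adjusted p = 0.017, 0.0446 and 0.0357. These calls depended on the setting. That of Irf8 was lost under TPM (limma adjusted p = 0.0926), with no filter on low values (0.0819) and without Ctrl-AM replicate 1 or Tumor-AM replicate 1 or 3 (0.0578 to 0.074). That of Cebpb was lost with other scalings, filters and priors (limma adjusted p = 0.0557 for scaling by median ratios to 0.182 with no filter) and without any Ctrl-AM sample, Tumor-AM replicate 2 or 3 or Tumor-macrophage replicate 3 (0.0622 to 0.161). That of Cebpa was lost with no filter (limma adjusted p = 0.0882), with a constant prior (0.0621) and without any 1 of the AM samples (0.0535 to 0.129).

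Genes that AMs express under GM-CSF had the median furthest from 0 of the 8 pathway lists in both Tumor-macrophage comparisons. The 5 AM markers, a cell type list that shares Pparg with them, had medians further from 0. These were −3.46 against Tumor-AM and −3.99 against Ctrl-AM, so a fall was not particular to the GM-CSF list. The AM gates were set on Siglec-F. Of 8, 1 rose and 1 fell from Ctrl-AM to Tumor-AM (25.0% against 10.3% of all genes, with a median of −0.41 against 0.014), or 1 and 4 under TPM. In Tumor-macrophage 1 rose and 7 fell against either AM group. That is 100% against 48.6% of all genes from Tumor-AM (median −1.72 against 0.0012) and against 54.8% from Ctrl-AM (median −2.16 against −0.0082). Pparg, their central regulator, is also an AM marker used to label the groups. It was at 185, 206 and 216 FPKM in Ctrl-AM, at 144, 135 and 140.3 in Tumor-AM and at 12.8, 12.1 and 10.5 in Tumor-macrophage, stepping down without overlap. The changes were −0.53 ± 0.088 (SE, limma adjusted p = 0.00455) between the AM groups and −3.46 ± 0.088 from Tumor-AM to Tumor-macrophage (limma adjusted p = 4.6e-10), so Pparg fell in the AM comparison in which Csf2ra rose.

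The other genes of the list with the largest calls also fell across the gates. The cholesterol exporter Abcg1 fell by 3.08 from Tumor-AM to Tumor-macrophage (SE 0.11, limma adjusted p = 6.02e-09), from 279.6 to 295 FPKM down to 28.2 to 40.8, and the carbonic anhydrase Car4 by 6.96 (SE 0.22, limma adjusted p = 2.27e-09), from 554 to 1169 down to 4.61 to 5.50. Abcg1 was at 368 to 391 FPKM in Ctrl-AM, above all Tumor-AM samples, with a change of −0.39 ± 0.11 (SE, limma adjusted p = 0.0514) that passed under TPM (−0.53, limma adjusted p = 0.0119) and without Tumor-macrophage replicate 1 or 2 (limma adjusted p = 0.00845 and 0.0189). Fabp4, a fatty acid-binding protein, Bhlhe41, a transcription factor, and Cd36, a scavenger receptor, fell by 2.03, 1.42 and 0.91 in Tumor-macrophage against Tumor-AM (SE 0.19, 0.14 and 0.26, limma adjusted p = 7.85e-06, 1.22e-05 and 0.0131), the last call being lost with no filter on low values (limma adjusted p = 0.101). Fabp5, also a fatty acid-binding protein and named after its values were seen, rose. It was at 367 to 380.3 FPKM in Ctrl-AM, at 518 to 587 in Tumor-AM and at 910.4 to 1096 in Tumor-macrophage, and rose by 0.56 ± 0.081 and 0.85 ± 0.081 in the 2 steps (SE, limma adjusted p = 0.00245 and 7.93e-06).

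Profiles over the 9 samples were compared with those of 3 receptors, by the root mean square of the differences between centred log2(FPKM + 1) values. Nearest to Csf1r were Frmd4b (0.111), Entpd1 (0.113) and Src (0.136), with Entpd1, the ATP-degrading enzyme CD39, at mean levels of 16.5, 19.6 and 77.5 FPKM in Ctrl-AM, Tumor-AM and Tumor-macrophage. Src had means of 0.2365, 0.4523 and 4.577 FPKM in the same order, below the filter's minimum of 1 in both AM groups, so its likeness is given as description only. Nearest to Csf2ra were Mgat1 (0.0699), Dap (0.0706) and Tex264 (0.0731). Csf3r had no neighbour as close, with Rgs1 at 0.19, Slc9a9 at 0.194 and Gm6377 at 0.195.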

How the data were processed

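The sorted cells were profiled as cDNA made with SMART-Seq HT, with Nextera libraries and single-end reads of 75 bases. The authors mapped the reads to mm10 with TopHat2 2.1.1 and Bowtie2 and deposited 1 FPKM value per gene symbol and sample, computed with Cufflinks (Cuffdiff 2.2.1 in the submitters' processing notes). The annotation and the use of strand are not given in the sources used here. FPKM does not correct for abundant RNAs that differ between populations. Depth was estimated from low FPKM values of 3075 genes with a single transcript, in units of 1 read, at 11100000 to 13900000 reads per sample, with 64.6% to 71.4% of values within 0.05 of a whole read. Values within 0.05 of halfway between whole reads made up 1.03% to 2.86%. The unit was searched within a set range and chosen to raise the share near whole reads, so that share does not test the depth. The read numbers estimated in this way bear on counting error only.

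Values were taken as log2(FPKM + 1), which understates changes of low genes, and the 10686 genes that reached an FPKM of 1 in 3 of 9 samples were tested. The groups were fitted together with limma 3.58.1 in R 4.3.3 (trended prior, two-sided), with Benjamini-Hochberg adjustment across the tested genes and a threshold of 0.05. The steps were tested on simulated data. Ratios were compared with an exact permutation test. The 9 genes, the 19 lists (8 of pathways, 11 of cell types) and the tests were chosen with earlier results of these data known. From each pathway list at most 6 genes with a call were named, the largest changes first, besides those said to be chosen after their values were seen. Transcripts were matched by symbol to GENCODE vM21 (95.74% of symbols), and promoters to RefSeq (GRCm38.p6), with Python 3.11.15, Biopython 1.88, numpy 2.4.6 and matplotlib 3.10.9. A gene of the JAK and STAT list is not reported here and was left out of its counts. Protein sequences and promoters of Csf1r and Csf2rb were not used here. Alternatives were other pseudocounts, filters, scalings, priors and thresholds, a fit of the compared groups alone, a replicate block, and leaving out each sample.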

Additional observations from a re-analysis of the deposited data

How the results depend on the processing

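From Ctrl-AM to Tumor-AM the number of genes past the threshold was 1100, but 505 without a filter on low values, 429 at an adjusted p of 0.01 and 538 to 1254 when single samples were left out, with the losses over 1.5 times on leaving out Ctrl-AM replicates 1, 2 or 3 (538, 690 and 549) or Tumor-AM replicates 1 or 3 (733 and 674). Of the 9 CSF genes, 1 passed in that comparison, 2 with a filter at an FPKM of 5 (Jak2 added), 0 under TPM (limma, 1 with an unadjusted p under 0.05), and 1 to 2 with a sample left out (Csf1r added without Tumor-AM replicate 2). The difference in the log2 ratio of Csf1r to Csf2ra between the AM groups was −0.05, 0.094 with Csf2rb as the denominator, and −0.18 to 0.11 with a sample left out. The change of Stat5b between Tumor-macrophage and Tumor-AM, −0.02, ran from −0.10 to 0.046 with a sample left out, above 0 without Tumor-AM replicate 2 (0.046) or Tumor-macrophage replicate 3 (0.037). The cause was not tested.

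Csf1 aside, the calls of CSF genes were kept under every alternative from Tumor-AM to Tumor-macrophage (7 of 7) and from Ctrl-AM (5 of 5). Leaving Csf1 out of the counts was chosen after seeing the data. Of the named genes of the lists, Stat4 and Socs1 aside, 6 of 10, 27 of 33 and 31 of 33 calls were kept in the 3 comparisons. Whether samples with the same replicate number came from 1 mouse or day is not given in the sources used here. The correlation of deviations in the 9 such pairs ran from −0.0615 to 0.159, with 2 above 0.1, against −0.152 to 0.0953 in pairs of different number. For Tumor-AM with Tumor-macrophage it was 0.026, 0.0964 and 0.109 at the same number, and −0.101 to 0.00617 at different numbers. Of the samples, 7 of 9 correlated best with their own number. A pairing is thus possible but was not established, and the main fit took the samples as independent. With a replicate block 938, 5069 and 5772 genes passed in place of 1100, 5191 and 5860, with the same number of CSF genes in each comparison, and the calls of Cebpb and Mcl1 between the AM groups and of Tyk2 between Tumor-macrophage and Ctrl-AM were lost (limma adjusted p = 0.0681, 0.0537 and 0.0507). Depth limits Csf1, and the other ligands lay below the filter.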
